A study of Mus musculus with 31 samples.

Results

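The clustered protocadherin region was followed here as an interval of 1110000 bp on mouse chromosome 18, from 36.9 to 38.01 megabases (Mb) in the mm9 build. Its bounds were set by position and not by a measured value, but it was chosen with earlier results of these data known. It held 1590 of the 1419929 CpG sites listed in any library of the series, and 1367 of its sites had at least 5 reads in at least 1 library. Summed into fixed windows of 100 bp, called tiles, these sites gave 397 of the 429024 tiles of the series, of which 221 held 3 or more measured sites in at least 1 library. The level of a tile in a library is the percentage of its reads that were methylated, over sites with at least 5 reads. The tiles span chr18:36903801-38002600. Each of the 9 stages had at least 2 libraries with a value for 72 of the 397 tiles, and for 35 of the 221 tiles with 3 or more sites. These 72 and 35 tiles, called common tiles, carry the comparisons over stages. The other tiles were measured too rarely for that, and those with 3 or more sites enter the tests between pairs of stages wherever both stages had at least 2 libraries.

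The series holds 31 reduced representation bisulfite libraries of mouse oocytes, all of the strain B6D2F1 (C57BL/6 x DBA/2), with no treatment or genotype difference named between groups. Reduced representation bisulfite sequencing cuts DNA with the enzyme MspI and so reads mostly CpG-rich sequence. Oocytes fall into 9 stages named Type1, Type2, Type3a, Type3b, Type4, Type5a, Type5b, Type6 and Type7, with 5 libraries each in Type4 and Type5a and 3 in each of the other 7. Type1 and Type2 came from primordial follicles (6 libraries), Type3a and Type3b from primary follicles (6), Type4, Type5a and Type5b from secondary follicles (13), and Type6 and Type7 from antral follicles (6). The labels used here do not state the age of the animals, the number of oocytes in a library or whether a stage's libraries derive from different animals. The p-values therefore measure how far these libraries spread, which may be a technical spread. Groups follow the titles, since another label names embryo stages that go against them.

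Clustered protocadherins are cell adhesion proteins known best from neurons, where each cell transcribes a small and variable choice of them and so carries its own surface identity. Each variable exon has its own promoter with a CpG-rich core, and in neurons and other somatic cells the methylation of that promoter goes with its silence. Growing oocytes are known to gain DNA methylation before ovulation, mostly across gene bodies that are transcribed in the oocyte, and to leave most CpG islands outside such bodies unmethylated.

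RefSeq lists 58 clustered protocadherin genes in a row on this chromosome: 14 of the alpha cluster (Pcdha1 to Pcdha12, Pcdhac1 and Pcdhac2), then 22 of the beta cluster (Pcdhb1 to Pcdhb22), then 22 of the gamma cluster, of which Pcdhgb8 is annotated as a transcribed pseudogene. The 5 C-type genes, Pcdhac1, Pcdhac2, Pcdhgc3, Pcdhgc4 and Pcdhgc5, stand at the ends of the alpha and gamma clusters, and Slc25a2 and Taf7 stand between the beta and gamma genes. That list was made on another build (GRCm38.p6) and no mm9 annotation was used, so no tile was assigned to a gene, exon or promoter, and the interval's name was not checked against an annotation. Positions are therefore given in mm9 and as kilobases (kb) from the start of the region, and the region was divided into 3 segments of equal length, 370 kb each. The first segment held 426 sites, the middle segment 229 and the last segment 935.

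A library had 5082 to 42423 reads over the sites of the region and measured 64 to 238 of its tiles. Between 21 and 35 of the 35 common tiles with 3 or more sites were measured in a library, fewest in Type1 replicate 2. Such a tile held 15 to 3812 reads in a library, with a median of 180.5. At 180 reads a level of 50% has a 95% Wilson interval of 42.8 to 57.2%, and a count of 0 allows a level of up to 1.67%. At the lowest depth, 15 reads, a count of 0 allows up to 20%. Reads of a tile are summed over its sites, so a read that covers several sites is counted at each of them. The intervals and limits treat these counts as independent and may be too narrow. The reads also carry no molecular identifiers, so the intervals cover counting error only.

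Methylation over the region stayed low from primordial to secondary follicles and was highest in antral ones, and at every stage it lay below the level of the other autosomal tiles. Over the 35 common tiles the 3 Type1 libraries had mean levels of 10.9, 10.2 and 14.9%, and the 3 Type2 libraries 10.5, 9.5 and 15.2%. Type3a libraries had 18.5, 11.1 and 10.8%, and Type3b libraries 14.2, 10.5 and 19.5%. These 4 stages overlapped one another.

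The 5 Type4 libraries ran from 12.7 to 23.2% with a median of 16.9%, and the 5 Type5a libraries from 10.6 to 17.8% with a median of 12.6%. Type5b libraries had 10.6, 15.3 and 16.9%, Type6 libraries 17.6, 27.7 and 27.0%, and Type7 libraries 23.0, 16.3 and 28.1%. All 3 Type6 libraries lay above all 3 of Type5b, while Type7 reached down into the range of Type5b. As stage means the region had 12.0% ± 2.53 (SD, n = 3) in Type1, 17.3% ± 3.88 (n = 5) in Type4, 14.2% ± 3.27 (n = 3) in Type5b and 24.1% ± 5.63 (n = 3) in Type6. It had 22.5% ± 5.95 (n = 3) in Type7.

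**Figure D1:**
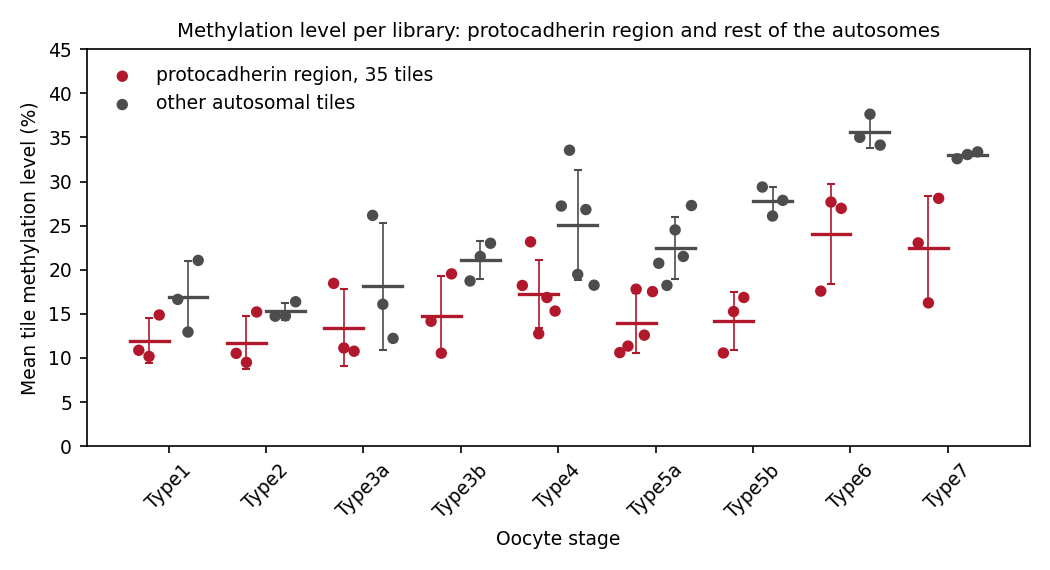
Mean tile methylation level (%) of each library by oocyte stage, for the 35 common tiles of the protocadherin region (red) and the 37622 other common autosomal tiles (grey). Points are libraries, horizontal lines stage means and error bars SD; the grey means climb to 33.01% in Type7 while the red ones lie at 22.5%, and the red points stay below 20% in Type5b.

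None of the 8 steps between adjacent stages passed the test for the region's mean level (two-sided exact permutation tests, adjusted over 8; lowest adjusted p = 0.8). The largest step was from Type5b to Type6, a gain of 9.84 points, with exact permutation p = 0.1, which is the smallest that 3 libraries against 3 can give. Over the 6 tiles measured in every library this step was -2.24 points, and that from Type6 to Type7 was 12.2 points. Over follicle classes, with more libraries in each, the level was 11.9% ± 2.51 (SD, n = 6) in primordial, 14.1% ± 4.03 (n = 6) in primary, 15.3% ± 3.65 (n = 13) in secondary and 23.3% ± 5.26 (n = 6) in antral follicles. Antral libraries rose above primordial ones by 11.4 points with no overlap (exact permutation p = 0.00216, adjusted over 4 contrasts 0.00433). They rose above secondary ones by 7.97 points with overlap (exact permutation, adjusted p = 0.00433). Primary and primordial libraries differed by 2.24 points (exact permutation, adjusted p = 0.361) and secondary and primary ones by 1.2 points (exact permutation, adjusted p = 0.524), neither past the threshold of 0.05. The step from secondary to antral follicles did not pass when tiles with fewer than 3 sites were let in (3.56 points, exact permutation, adjusted p = 0.30) or when reads were pooled over tiles (2.65 points, exact permutation, adjusted p = 0.338).

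The region fell behind the rest of the autosomes as oocytes grew. The other 37622 common autosomal tiles had a mean level of 16.1% ± 2.78 (SD, n = 6) in primordial, 19.6% ± 5.02 (n = 6) in primary, 24.7% ± 4.71 (n = 13) in secondary and 34.3% ± 1.84 (n = 6) in antral libraries. The level of the region minus that of these tiles in the same library was -4.23 points in primordial, -5.52 in primary, -9.39 in secondary and -11.03 in antral follicles, as class means. The 6 primordial libraries ranged from -6.19 to -1.16 points, and the 6 antral ones from -17.4 to -5.27. The change from primordial to antral follicles was -6.80 points, and the 2 classes overlapped (exact permutation p = 0.00866, adjusted over 4 contrasts 0.0346). The 3 other class contrasts did not pass (exact permutation, adjusted p = 0.448 for primary against primordial, 0.0785 for secondary against primary and 0.448 for antral against secondary). This call was lost without any 1 of the 6 primordial libraries (exact permutation, adjusted p from 0.0606 to 0.0779). It was also lost at a minimum of 10 reads per site (-7.56 points, exact permutation, adjusted p = 0.0779), with tiles measured in every library (-7.03, adjusted p = 0.499), with reads pooled over tiles (-9.71, adjusted p = 0.0606), with levels centred per tile (-6.02, adjusted p = 0.0606) and without the 9 libraries whose X measure, described below, was above 0 (-5.86, exact permutation, adjusted p = 0.0952).

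The gap was wider with tiles of 1 or 2 measured sites included. Over the 72 common tiles of any site number the region had 12.6% ± 3.14 (SD, n = 6) in primordial and 21.1% ± 5.88 (n = 6) in antral libraries, against 14.6% ± 3.27 and 38.9% ± 2.36 over 81650 other autosomal tiles. The gap went from -2.01 points in primordial to -17.8 in antral follicles, a change of -15.8 points with no overlap between the classes (exact permutation, adjusted p = 0.00433).

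Over the 35 common tiles the gap between region and rest was, as stage means, -4.90, -3.55, -4.70, -6.33, -7.80 and -8.48 points from Type1 to Type5a. In Type5b it was -13.5 points, in Type6 -11.5 and in Type7 -10.5. The step from Type5a to Type5b was -5.07 points with no overlap between 5 and 3 libraries. It did not pass after adjustment over the 8 adjacent steps (exact permutation p = 0.0179, adjusted p = 0.143), and no other step was closer to passing. Without Type5b replicate 1 it was -2.44 points, and over the 6 tiles measured in every library it was 1.81 points, the other direction. At this step the mean of the other autosomal tiles went from 22.5% ± 3.51 (SD, n = 5) to 27.8% ± 1.64 (n = 3), and the region's mean from 13.98% ± 3.44 to 14.2% ± 3.27.

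Few tiles of the region became highly methylated. Among the 72 common tiles, 9 (12.5%) had a stage mean of at least 50% in Type1 and 9 (12.5%) in Type7, while the share among other autosomal tiles went from 10.7% to 36.2%. Tiles at 80% or more numbered 0 in Type1 and 3 (4.17%) in Type7, against 1.17% and 20.8% of the others. In Type5b 5 tiles of the region (6.94%) were at 50% or more, against 28.4% of the others. None of the 72 tiles went from below 20% in both Type1 and Type2 to 50% or more in Type7, a course that 16.7% of the other tiles took. The common tile chr18:37249801-37249900 came close, with 49.8% ± 41.7 (SD, n = 3) in Type7. Outside the 72 some measured tiles did take this course, such as chr18:38002101-38002200 with 86.2% ± 12.2 (n = 3) in Type7. The share below 20% at every stage was 29 of 72 (40.3%), against 29.6% elsewhere. These shares describe stage means, with no test of their own, and single tiles with few sites move widely between libraries.

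**Figure D2:**
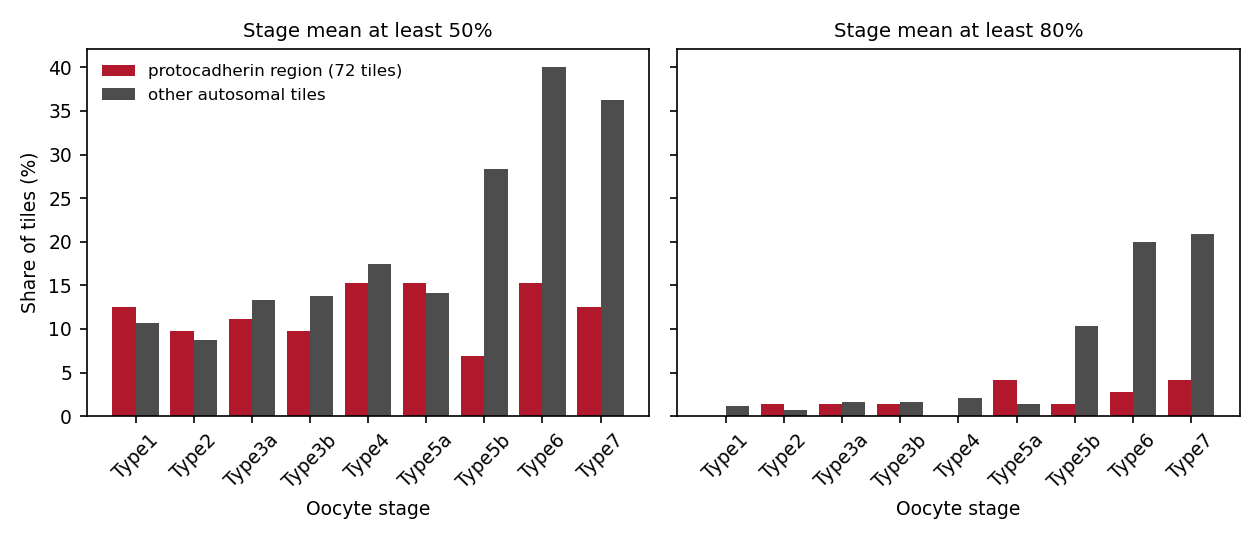
Share of common tiles (%) whose stage mean was at least 50% (left) or at least 80% (right), by oocyte stage, for the 72 tiles of the protocadherin region (red bars) and the 81650 other autosomal tiles (grey bars). At Type7 the red bars stand at 12.5% and 4.17% and the grey bars at 36.2% and 20.8%; at Type1 the 50% bars are of like height.

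The rise from primordial to antral follicles passed the test in the first and middle segments of the region and not in the last. Over common tiles with 3 or more sites, the first segment (19 tiles) had 17.9% ± 3.62 (SD, n = 6) in primordial and 32.1% ± 8.90 (n = 6) in antral libraries. Antral values ran from 20.5 to 42.6% and primordial ones from 14.6 to 23.9%, with overlap, and the rise of 14.2 points passed the test (exact permutation p = 0.0108, adjusted over the 3 segments 0.0162). At a minimum of 10 reads per site it was 12.0 points and no longer passed (exact permutation, adjusted p = 0.0909), nor did it with reads pooled over tiles (8.75 points, exact permutation, adjusted p = 0.0617).

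The middle segment (5 tiles) rose by 18.5 points, from 1.42% ± 1.47 (SD, n = 6) to 19.9% ± 14.8 (n = 6) with no overlap (exact permutation, adjusted p = 0.00649). Antral libraries spread from 5.53 to 40.1%, and 4 of the 5 tiles stand in 1 tight group at 403.6 kb, so this value describes that neighbourhood rather than 370 kb. Over its 13 common tiles of any site number the segment had 7.39% ± 2.48 (n = 6) in primordial libraries, from 3.57 to 10.5%, and 18.5% ± 9.54 (n = 6) in antral ones, from 7.91 to 32.2%. That rise of 11.1 points passed the test, with overlap (exact permutation, adjusted p = 0.0292). The last segment (11 tiles) had 5.87% ± 2.75 (n = 6) in primordial and 10.1% ± 4.19 (n = 6) in antral libraries, a difference of 4.24 points that did not pass (exact permutation, adjusted p = 0.0693). The change in the first segment exceeded that in the last by 9.94 points and the change in the middle segment exceeded it by 14.2 points, and neither difference between segments passed (exact permutation, adjusted p = 0.0649 for both). At 200-bp tiles both differences did (10.1 points, adjusted p = 0.0325, and 13.2 points, adjusted p = 0.0195, by exact permutation), and the change in the last segment passed as well (4.94 points, adjusted p = 0.0346).

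**Figure D3:**
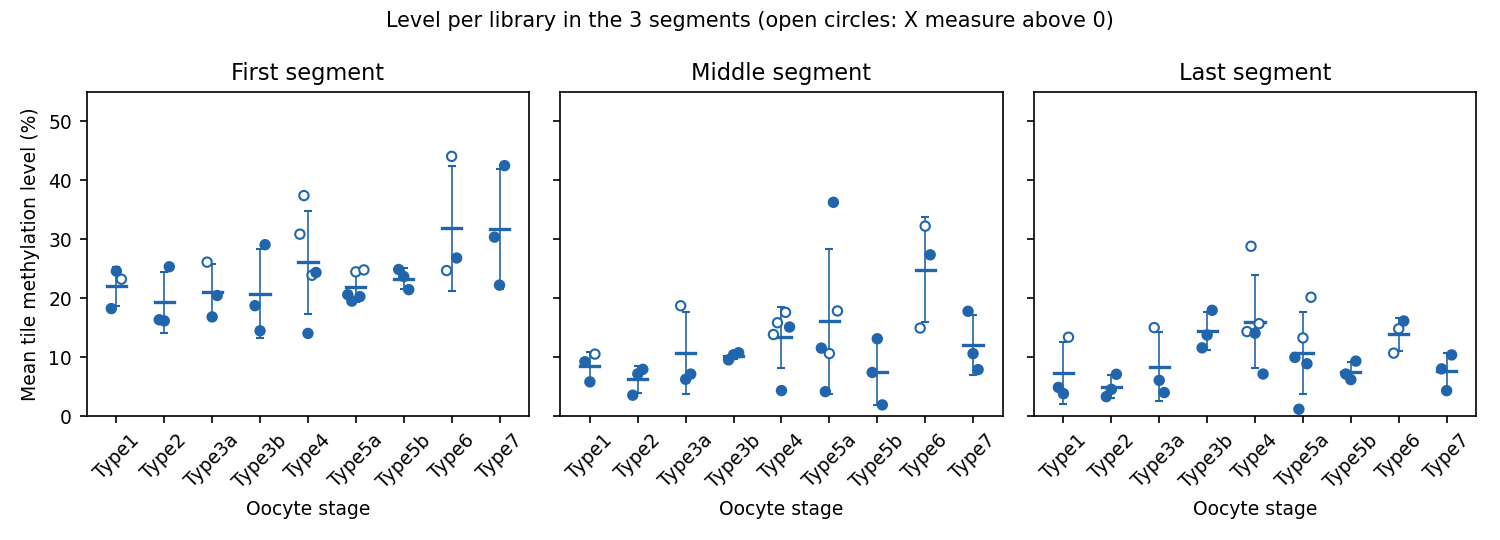
Mean tile methylation level (%) per library by oocyte stage in the first, middle and last segment of the region, over 32, 13 and 27 common tiles of any site number. Points are libraries (open where the X measure was above 0), horizontal lines stage means and error bars SD; Type6 and Type7 libraries stand between 22.2 and 44.1% in the first segment and between 4.33 and 16.2% in the last.

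Along the region the 72 common tiles form 33 groups, taken here as runs of tiles no more than 1 kb apart. By stage mean 11 of these groups stayed below 20% in every stage, 1 stayed at 50% or more in every stage, and 2 reached 80% or more in Type7. All 3 kinds of group occurred in the first segment, with groups of none of these kinds between them.

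At the start of the region, 19.8 and 42.6 kb in, 2 unmethylated groups of 3 and 6 tiles never had a stage mean above 1.42% and 3.48%. Beyond them, at chr18:36990901-36991100, 2 tiles with 9 sites between them had means above 50% in every stage but Type5b, from 51.8% ± 5.64 (SD, n = 3) in Type3a to 82.6% ± 11.4 (n = 3) in Type6, and had 45.1% ± 0.364 (n = 2) in Type5b. At 192.0, 201.1 and 214.4 kb 3 groups again had low means in primordial stages, at most 6.25%. The tile group at chr18:37139901-37140100 (13 sites, 239.9 kb in) was the one that stayed at 50% or more throughout, from 55.9% ± 12.9 (n = 3) in Type5b to 69.6% ± 6.52 (n = 3) in Type2. Its 2 tiles differed, since chr18:37139901-37140000 had a stage mean of 68.5 to 90.3% and its neighbour one of 37.1 to 57.7%.

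The group at chr18:37233601-37233800 (5 sites, 333.6 kb in) ended highest of all 33. Its level was 65.1% ± 4.49 (SD, n = 2) in Type1, 31.1% ± 9.77 (n = 3) in Type2, 44.2% ± 33.4 (n = 5) in Type4, 73.3% ± 19.8 (n = 3) in Type5b, 79.5% ± 29.1 (n = 3) in Type6 and 97.7% ± 3.21 (n = 2) in Type7. In its tile chr18:37233601-37233700 the 2 Type7 libraries that measured it were at 100 and 100%, the Type6 libraries at 56.8, 100 and 100%, and the Type2 libraries at 21.1, 47.9 and 40%. The next group, at chr18:37249601-37250200 (23 sites), had 3.84% ± 4.79 (n = 3) in Type1 and 36.4% ± 27.4 (n = 3) in Type7.

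**Figure D4:**
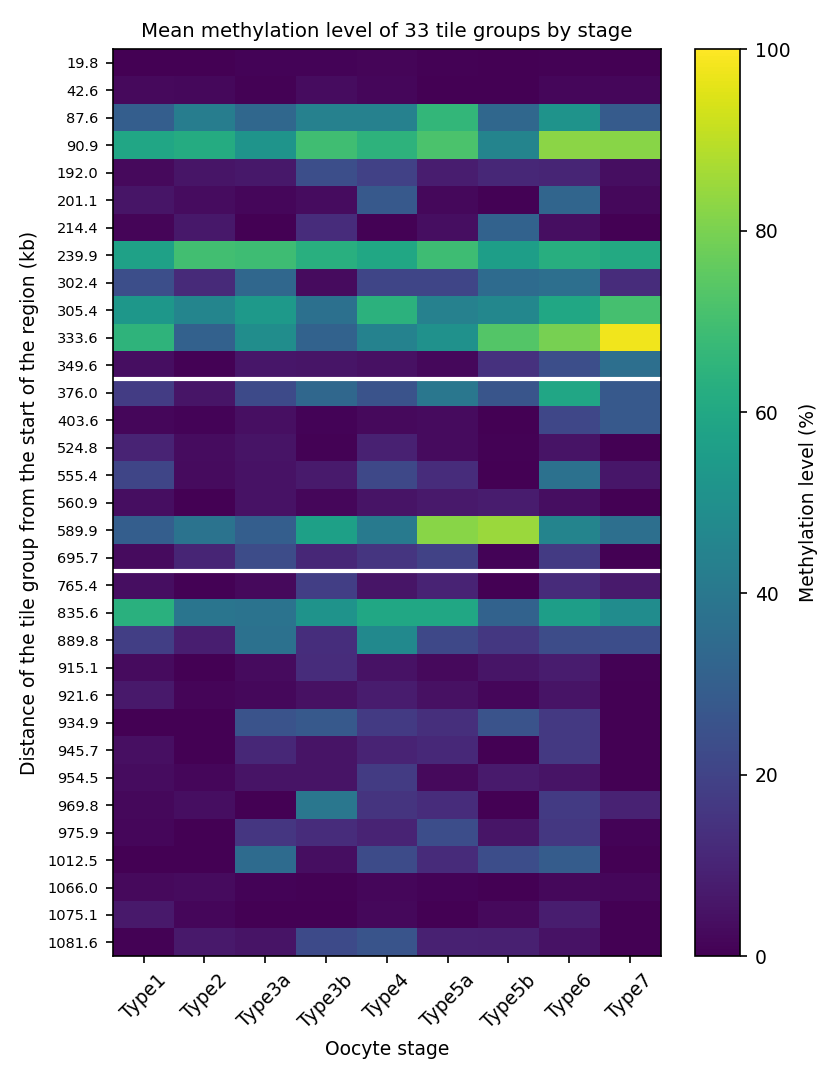
Mean methylation level (%, colour) of the 33 tile groups of the region by oocyte stage, in order of distance from the start of the region (kb); white lines separate the segments. Light rows that stay light from Type1 on stand among dark rows in the first segment, and the lower 14 rows, the last segment, are dark in Type2 and Type7 but for the one at 835.6 kb and, more faintly, the one at 889.8 kb.

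In the middle segment, methylated and unmethylated tiles stood close to each other. At 403.6 kb the 4 common tiles of chr18:37303601-37304500 hold 27 sites. The tile chr18:37303601-37303700 was at 0% in both Type6 and both Type7 libraries that measured it, and its neighbour chr18:37303701-37303800 at 11.7 and 0.136% in Type6 and at 0 and 0% in Type7. In the tile chr18:37304301-37304400 Type7 libraries were at 62.1, 32.0 and 20.4%, and in chr18:37304401-37304500 at 58.1, 28.9 and 14.3%. The Type7 libraries kept the same order in these 2 adjacent tiles, which the same sequenced fragments may cover and which are not independent. At 589.9 kb a tile with a single site, chr18:37489901-37490000, stood apart in course: it had 82.4% ± 22.4 (SD, n = 3) in Type5a and 85.0% ± 21.2 (n = 2) in Type5b, and 36.7% ± 4.71 (n = 2) in Type7.

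The last segment held 7 of the 11 groups that were low throughout. Of its 14 groups 7 stayed below 20% in every stage, and 9 had stage means below 5% in both Type2 and Type7. The group of 5 tiles and 35 sites at chr18:37966001-37967200 had stage means of 0.356 to 2.76% throughout. Among 2 groups that were higher, chr18:37735601-37735800 (9 sites) had 63.4% ± 28.4 (SD, n = 2) in Type1, 31.6% ± 14.2 (n = 3) in Type5b and 48.6% ± 17.5 (n = 3) in Type7.

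Several low groups of the last segment carried methylation in between. The tile chr18:37912501-37912600 was at 0% in all Type1, Type2 and Type7 libraries that measured it, and had 22.7% ± 18.3 (SD, n = 4) in Type4 and 29.2% ± 26.7 (n = 3) in Type6. Over 72 common tiles, 18 (25%) were below 20% in Type1, Type2 and Type7 and at 20% or more in some other stage, against 14.2% elsewhere, and 10 of the 18 lay in the last segment. Among the 35 common tiles with 3 or more sites the count was 4 (11.4%), against 8.54% elsewhere, with 3 in the first segment and 1 in the last. Over tiles of any site number Type4 exceeded both Type2 and Type7 in 22 of 27 tiles of the last segment, in 13 of 32 of the first and in 37.4% of other autosomal tiles. By mean level over such tiles it also exceeded both in the middle segment (13.4% against 6.24 and 12.1%). Over tiles with 3 or more sites it did not there (4.57% against 0.817 and 20.3%), but did in the last segment (11.7% against 5.64 and 7.29%). These differences were not tested.

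Over tiles of any site number, the level of the last segment was in 4 of the stages highest in a library that also stood out in a measure of the whole library. This X measure is the mean level of 63 CpG-dense tiles of the X chromosome minus that of 2902 CpG-dense autosomal tiles, where CpG-dense means at least 60 listed sites per kb. It was above 0 in 9 of the 31 libraries. In Type4 the last segment (27 common tiles) was at 14.4% (X measure 6.75 points), 28.8% (10.6), 14.1% (-3.37), 15.7% (9.94) and 7.16% (-0.66) in replicates 1, 2, 4, 5 and 6. In Type5a it was at 9.97% (X measure -3.86 points), 1.18% (-3.66), 13.3% (0.98), 8.90% (-3.73) and 20.2% (3.23) in replicates 1, 4, 5, 6 and 7.

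The highest value in each of these 2 stages thus belonged to a library with an X measure above 0. The same held in Type1, where replicate 3 had 13.4% (X measure 1.09) against 4.89 and 3.82%, and in Type3a, where replicate 1 had 15.03% (1.86) against 6.08 and 4.01%. It did not hold in Type6, where replicates 1 and 2 had 10.7 and 14.8% at an X measure of 1.04 and 1.31 and replicate 3 had 16.2% at -4.02, nor in Type3b, where all 3 X measures were below 0 and the levels were 11.6, 13.8 and 17.97%. Over the 11 common tiles with 3 or more sites it did not hold in Type4 either. There replicate 4, with an X measure of -3.37, had the highest level of the last segment, 15.01%, against 11.4, 14.2, 13.3 and 4.40% in replicates 1, 2, 5 and 6. With tiles of any site number, the library highest in the last segment was also highest over the other autosomal tiles in Type1, Type3a, Type4 and Type5a. Over those tiles it had 20.8, 27.4, 36.2 and 29.6%, and the next library 14.6, 14.1, 28.6 and 25.0%. The same held in Type2, Type3b and Type7 and did not in Type5b and Type6. The part of the X measure or of the autosomal level in the result was not tested. With the 9 libraries left out, the region's own level over 35 tiles was 14.04% (n = 2) in Type4, 11.5% (n = 3) in Type5a, 14.2% (n = 3) in Type5b and 22.5% (n = 3) in Type7, and 27.0% in the 1 library left in Type6.

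Tests of single tiles found few changes in the region, and most of those lay in 2 neighbourhoods around 350 and 404 kb. A tile was called where a quasi-binomial model of its methylated and total reads, fitted to all 31 libraries and adjusted by Benjamini-Hochberg over all tiles of the genome tested in a contrast, reached an adjusted p below 0.05 together with a change of 20 percentage points or more. No tile of the region was called in the 5 steps from Type1 to Type5a, where 82, 55, 46, 67 and 106 tiles were tested and 2, 4, 2, 7 and 12 had an unadjusted p under 0.05. These are 2.44, 7.27, 4.35, 10.4 and 11.3% of the region's tiles, where 10.04, 9.26, 6.81, 10.999 and 10.9% of all tiles had such a p. The linear model of limma, on the log ratio of methylated to unmethylated reads per tile, also called 0 in each of the 5. Few tiles were called anywhere at these steps: 0.00144% of all tiles higher and 0.0316% lower from Type1 to Type2, 0.0151% and 0.00168% from Type2 to Type3a, 0.00388% and 0.00194% from Type3a to Type3b, 0.0614% and 0.0173% from Type3b to Type4, and 0.0403% and 0.0166% from Type4 to Type5a.

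From Type5a to Type5b 0 of 59 tiles of the region rose and 1 fell, where 4.32% of all tiles rose and 0.135% fell. The 1 tile was chr18:36991001-36991100 (4 sites, 91.0 kb). Its Type5a libraries were at 50.0, 64.8, 70.1, 97.0 and 63.0%, the 2 Type5b libraries that measured it at 12.7 and 12.8%, and the Type6 libraries at 80.1, 100 and 99.4%. It was lower in Type5b than in any library of either neighbour stage. The fall of 56.2 points (quasi-binomial model, adjusted p = 0.0393) and the later rise of 80.5 points (adjusted p = 0.0114) were both called. The fall was lost in the fit on these 2 stages alone, with limma, with the replicate number as a block, with at least 10 reads per site, without the 9 libraries whose X measure was above 0, and without any 1 of 5 libraries, Type5a replicates 5 and 6 and the 3 of Type5b, where without Type5b replicate 2 or 3 the tile could no longer be tested. The tile next to it, chr18:36990901-36991000, had 77.0 and 77.9% in the same 2 Type5b libraries.

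From Type5b to Type6 3 of 59 tiles rose (5.08%, against 2.08% of all tiles) and 0 fell (against 0.124%). Beside the tile at 91.0 kb these were chr18:37251701-37251800 (3 sites, 351.7 kb), at 7.14 and 0% in Type5b and at 66.7 and 84.9% in Type6 (a rise of 72.2 points, quasi-binomial model, adjusted p = 0.0283), and chr18:37304401-37304500, at 0% in all 3 Type5b libraries and at 39.2, 0 and 90.2% in Type6. In the first the stages stood apart, on 15 to 84 reads a library. In the second they overlapped, so it falls outside the rule for named tiles (a rise of 43.1 points, adjusted p = 0.0246). That rise was 19.6 points without Type6 replicate 3, no longer called, and 64.7 points without Type6 replicate 2. Without Type5b replicate 1, Type5b replicate 3 or Type6 replicate 3 the count of called tiles fell to 1, and without Type6 replicate 1 it was 5. It was 0 in the fit on the 2 stages alone and 1 with limma.

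From Type6 to Type7 0 of 69 tiles rose (against 0.806% of all tiles) and 3 fell (4.35%, against 0.305%). In chr18:37250101-37250200 (3 sites, 350.1 kb) Type6 libraries were at 35.1, 75.0 and 62.4% and Type7 libraries at 0, 7.97 and 22.8%, which did not overlap (a fall of 47.2 points, quasi-binomial model, adjusted p = 0.0473). In chr18:37885601-37885700 (5 sites, 985.6 kb) Type6 libraries were at 31.9 and 16.7% and Type7 libraries at 1.58 and 0% (a fall of 23.5 points, adjusted p = 0.00235). The adjacent tile chr18:37885701-37885800 had 43.4 and 0% in Type6 and 1.36 and 0% in Type7, with overlap (a fall of 21.0 points, adjusted p = 0.0394). The count of called tiles was 0 without Type6 replicate 3 or Type7 replicate 1, and 1 without Type6 replicate 1 or Type7 replicate 3. It was also 0 in the fit on the 2 stages alone, with limma, and with at least or at most 10 reads per site, and 1 with 200-bp tiles or tiles of any site number.

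Between the first and last stage, Type1 and Type7, 6 of 67 tiles of the region rose (8.96%) where 17.2% of all tiles did, and 1 fell (1.49%, against 0.14%). The median difference over the 67 tiles was 0 points, and over all tiles tested 1.99 points. Of the 6, 4 adjacent tiles cover chr18:37249701-37250100, with 8, 5, 6 and 5 sites.

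In chr18:37249901-37250000 Type1 libraries were at 0 and 0% and Type7 libraries at 56.3 and 61.1% (a rise of 58.7 points, quasi-binomial model, adjusted p = 0.00551). In chr18:37250001-37250100 Type1 libraries were at 0 and 17.1% and Type7 libraries at 59.6 and 78.1% (a rise of 60.3 points, adjusted p = 0.0272), and all 3 Type6 libraries were already at 52.5 to 62.9%. In chr18:37249801-37249900 Type1 libraries were at 0, 0.0651 and 5.55% and Type7 libraries at 52.6, 6.77 and 89.9% (a rise of 47.9 points, adjusted p = 0.0489). The first of the 4, chr18:37249701-37249800, overlapped, with 0, 8.80 and 0% in Type1 and 55.5, 6.56 and 77.2% in Type7 (a rise of 43.5 points, adjusted p = 0.0431). Type7 replicate 2 stood near 7% in both tiles that it measured here, far below the other 2 libraries. Without it the rises at 349.8 and 349.7 kb were 69.4 and 63.4 points. Without Type7 replicate 3 they were 27.8 and 28.1 points and not called (adjusted p = 0.255 and 0.227). The fifth tile of this run is the one at 350.1 kb, which had been high in Type6 and was low again in Type7.

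The tile chr18:37304301-37304400 (6 sites, 404.3 kb) was at 0 and 0% in Type1 and at 62.1, 32.0 and 20.4% in Type7 (a rise of 38.2 points, quasi-binomial model, adjusted p = 0.0102). It stayed at 0% in all 3 libraries of Type3b and all 3 of Type5b, and had 30.2, 0 and 84.0% in Type6. The tile chr18:38002101-38002200 (3 sites, 1102.1 kb), near the end of the region, was at 0 and 0% in Type1 and at 77.0, 81.5 and 100% in Type7 (a rise of 86.2 points, adjusted p = 0.000691). It was at 18.2% in the 1 Type5b library and 62.9% in the 1 Type6 library that measured it, and at 0 to 8.33% in the libraries of earlier stages. It is not among the common tiles, and it was the only called tile of the region that rose in the last segment.

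The 1 tile that fell, chr18:37896801-37896900 (4 sites, 996.8 kb), was at 22.5 and 24.2% in the 2 Type1 libraries and at 0% in every library of every later stage that measured it, Type7 included (a fall of 23.4 points, quasi-binomial model, adjusted p = 0.00418). The count of 7 called tiles between Type1 and Type7 depended on single libraries. It was 0 without Type1 replicate 1, 1 without Type1 replicate 3 or Type7 replicate 1, 3 without Type7 replicate 3, 2 without the 9 libraries of X measure above 0 and 1 in a fit on the 2 stages alone.

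**Figure D5:**
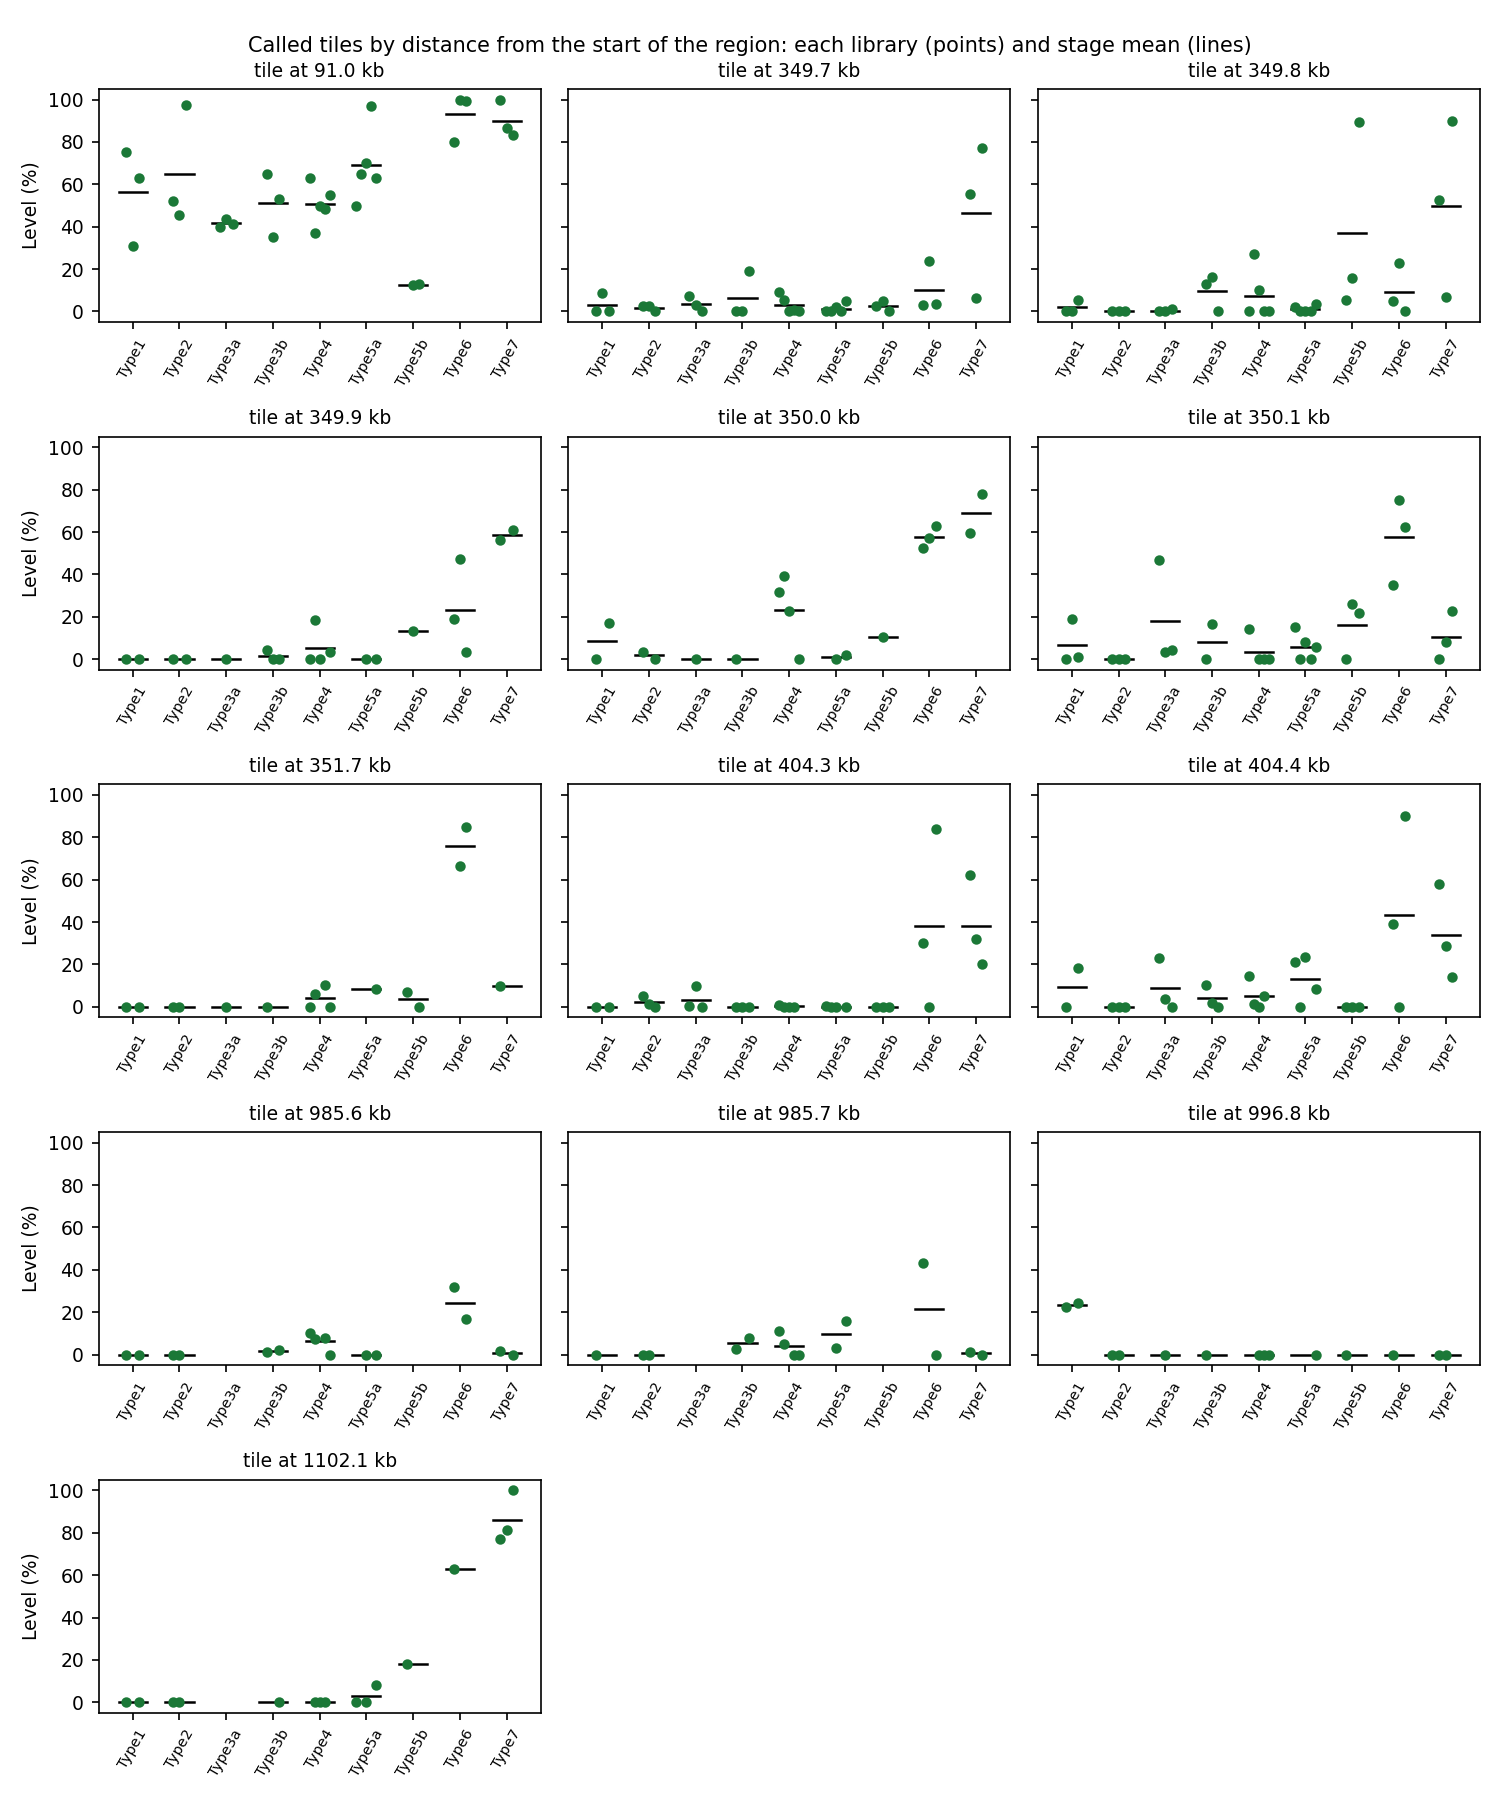
Methylation level (%) of the 13 tiles of the region called in any contrast, 1 panel a tile titled by its distance from the start of the region, by oocyte stage; points are libraries with at least 3 measured sites in the tile and lines are stage means. At 349.7 to 350.0 kb, 404.3 kb and 1102.1 kb the highest stage mean is that of Type7. At 404.3 kb Type6 is nearly level with it (38.07 against 38.16%), and at 350.0 kb the Type6 libraries are at 52.5 to 62.9%. Before Type6, single libraries reach 39.2% in Type4 at 350.0 kb and 89.2% in Type5b at 349.8 kb. At 91.0 kb Type5b stands alone below 20%.

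In primordial libraries the level within the region was lower the closer CpG sites stood, and in antral libraries it was lowest at 20 to 39 sites per kb. CpG density counts, for each tile, the listed sites of all libraries in the 1 kb that surrounds it, and so only sites the assay reached. Of the 35 common tiles 8 had up to 9 sites per kb, 7 had 10 to 19, 13 had 20 to 39 and 7 had 40 to 59, and none had 60 or more. In primordial libraries these 4 classes had mean levels of 30.2, 14.3, 5.29 and 1.32% in the region and 14.998, 18.4, 19.2 and 12.8% in other autosomal tiles. In antral libraries they had 46.6, 25.3, 11.9 and 17.1% in the region and 48.6, 43.4, 34.1 and 21.6% in the others. In primordial libraries the mean of the 8 sparsest tiles thus lay above that of other autosomal tiles of their class. The mean of each denser class lay below that of its counterpart. In antral libraries all 4 class means lay below. These are means over few tiles with no test.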

How the data were processed

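DNA methylation was measured by reduced representation bisulfite sequencing in 31 oocyte libraries. Per the labels' protocols, DNA of lysed oocytes was cut with MspI, given premethylated adaptors, converted with bisulfite, and size-selected after PCR. Per the submitters' processing notes, BSMAP 2.89 and mm9 were used, while a methylation caller and read trimming are not named there. The deposited files give counts of all and of methylated reads per CpG site, in total and per strand, and the methylated fraction; from the values, no listed site has fewer than 3 reads. Variants of the strain from C to T and cytosines filled in at untrimmed fragment ends read as unmethylated, and unconverted cytosines as methylated.

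Reads of sites with at least 5 reads were added up over 100-bp tiles. A tile needs at least 3 such sites in a library unless tiles of any site number are named. Libraries had 7949652 to 60361665 reads over sites. No 2 libraries of 1 stage (41 pairs) had identical counts at more than 1.01% of sites, so none was treated as a duplicate. A library's level is the mean over the common tiles that it measured, so libraries cover somewhat different tiles. Two-sided exact permutation tests compared library levels, with Benjamini-Hochberg adjustment within each family (8 adjacent stages, 4 class contrasts, 3 segments, 3 pairs of segments). Tiles were tested genome-wide with a quasi-binomial model with stage as factor, the larger of the Pearson and deviance dispersions, moderated by limma's squeezeVar method with a floor of 1, and F tests, for tiles measured in at least 2 libraries of both stages. The model was checked on simulated reads that gave every tile the same degree of spread between libraries. That check does not cover tiles that varied more. Named tiles are called tiles in which the 2 stages' libraries did not overlap, at most 5 per direction; called tiles with overlap were named after their values were seen. Tile groups and the counts of tiles by course were likewise defined with the values in view.

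The region, its tests and its lists were chosen with earlier results of these data known. Alternatives were other read and site minimums, 200-bp tiles, at most 10 reads per site, tiles measured in every library, pooled reads, a fit on 2 stages, limma 3.58.1, a replicate block, and fits without single libraries or without the 9 libraries of X measure above 0. Centring each tile over all libraries, and the contrasts of region minus rest between adjacent stages, were added after seeing the data. Genes were not placed, because promoter sequences of these genes and an mm9 annotation were not used here, and no sequence is printed. The tools were R 4.3.3, Python 3.11.15, pandas 2.3.3, scipy 1.17.1, numpy 2.4.6 and matplotlib 3.10.9.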

Additional observations from a re-analysis of the deposited data

Results flagged for a closer look

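In 3 of the 27 groups of 4 to 10 libraries examined, 1 library stood apart from all others of its group. In all 3 the other libraries were at exactly 0, so that any methylated read would set a library apart, and the usual chance rate of about 1 in 20 groups does not apply. In the tile chr18:37250101-37250200, Type4 replicate 1 was at 14.1% of 78 reads and the 3 other Type4 libraries that measured the tile at 0%. In the tile chr18:37304301-37304400, Type4 replicate 1 was at 0.698% of 430 reads and the 3 other Type4 libraries at 0%. In the same tile Type5a replicate 1 was at 0.552% of 181 reads and the 3 other Type5a libraries at 0%. Type4 replicate 1 has an X measure of 6.75 points and Type5a replicate 1 one of -3.86 points. The part of that measure in these values was not tested.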

How the results depend on the processing

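Over all alternatives other than single libraries left out, 142 of 188 library levels and differences kept their direction and side of the threshold, as did 50 of 88 values of named tiles, while 37 of these named-tile values kept their direction and lost their call. With at least 10 reads per site the level steps from Type1 to Type2, Type3b to Type4, Type6 to Type7 and primary to secondary became 0.44, -0.88, 1.93 and -0.16 points, primary minus primordial passed (2.26), the region-minus-rest change from primary to secondary passed (-5.50) and that from primordial to antral did not (-7.56), the first segment's rise did not (12.0), the middle-minus-last difference did (25.9), and tile calls were 0 from Type5a to Type5b, 0 from Type6 to Type7 and 4 from Type1 to Type7. With 200-bp tiles Type5b minus Type5a was -2.11, the last segment (4.94), first minus last (10.1) and middle minus last segment (13.2) passed, and 1 tile was called from Type6 to Type7. With tiles of any site number Type5b minus Type5a was -2.44, antral minus secondary did not pass (3.56) while its region-minus-rest change did (-10.1), first minus middle segment was 0.029, and tile calls were 4 from Type5a to Type5b and 1 from Type6 to Type7. At most 10 reads per site gave -0.13 for Type5b minus Type5a, passes for first minus last (10.6) and middle minus last segment (15.1), and 0 calls from Type6 to Type7.

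With tiles measured in every library (6, and 0 in the middle segment, which has no value there) Type4 minus Type3b was -1.36, Type6 minus Type5b -2.24, Type7 minus Type6 12.2 and secondary minus primary -0.042, primary minus primordial passed (2.01), region minus rest from primordial to antral did not (-7.03), first minus last segment passed (18.6), and region minus rest from Type5a to Type5b was 1.81. Pooled reads gave 3.90 for Type2 minus Type1, -1.88 for Type3a minus Type2, -1.36 for Type5b minus Type5a and 4.98 for Type7 minus Type6; antral minus secondary (2.65), region minus rest from primordial to antral (-9.71) and the first segment (8.75) did not pass, and region minus rest from secondary to antral did (-7.74). Centred tiles left region minus rest from primordial to antral at -6.02, not past the threshold, and first minus last segment at 12.1, past it. Without the 9 libraries of X measure above 0, Type2 minus Type1, Type3a minus Type2, Type4 minus Type3b and secondary minus primary were 1.22, -0.80, -0.71 and -0.065, region minus rest from primordial to antral did not pass (-5.86), first minus last (11.5) and middle minus last segment (19.6) passed, 7 tiles were called from Type5b to Type6, where Type6 has 1 library assumed to vary like the other stages, and 2 from Type1 to Type7, and the tile chr18:37885701-37885800 differed by 0.678 from Type6 to Type7. A fit on the 2 stages called 0, 0, 0 and 1 tiles from Type5a to Type5b, Type5b to Type6, Type6 to Type7 and Type1 to Type7, and limma 0, 1 and 0 in the first 3 of these. The cause of these changes was not tested.

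Libraries with the same replicate number in different stages were not more often alike than others. Of 84 such pairs 6 had deviations correlated above 0.1, and of 340 pairs with different numbers 34. These counts cannot show whether libraries of the same number share an animal. With the replicate block Type3b minus Type3a was -2.44, and 1, 0 and 5 tiles were called from Type1 to Type2, Type5a to Type5b and Type5b to Type6.

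With single libraries left out, level steps between adjacent stages ranged from -1.96 to 1.22, -0.80 to 3.44, -1.10 to 3.8, 0.41 to 4.91, -4.41 to -1.81, -1.06 to 2.09, 8.01 to 13.1 and -4.85 to 1.5 points from Type1 to Type7. Class steps ranged from 1.15 to 2.95, 0.49 to 2.29, 7.00 to 9.37 and, antral minus primordial, 10.4 to 12.8. For region minus rest the same contrasts ranged from -2.11 to -0.20, -4.96 to -3.06 (past the threshold without Type3b replicate 2 or Type4 replicate 6), -2.79 to -0.36 and -7.96 to -5.52, and Type5b minus Type5a from -6.43 to -2.44. The first, middle and last segments changed by 12.1 to 16.5, 14.4 to 21.3 and 3.39 to 5.47 (past it without Type1 replicate 3, Type7 replicate 1 or Type7 replicate 2), and the differences first minus middle, first minus last and middle minus last by -8.96 to -0.28, 8.28 to 12.7 (past it without Type6 replicate 1) and 8.94 to 17.6 (past it without Type6 replicate 2). Tile calls ranged from 0 to 0 in the first 5 steps, 0 to 1, 1 to 5 and 0 to 3 in the last 3, and 0 to 6 from Type1 to Type7.

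Depth limits these values most for single tiles. At 15 reads, summed over sites and taken as independent, a level of 46.7% has a Wilson interval of 24.8 to 69.9%. Many tile means rest on 2 libraries of a stage.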
